A study of Mus musculus with 12 samples.

Results

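The nuclear-encoded subunits of the mitochondrial respiratory chain were examined in primary cardiomyocytes of adult mice exposed to cytokines that act through the LIF receptor, the OSM receptor or both. Subunits were taken by symbol and biotype from the deposited table. These were the protein-coding rows named Nduf (subunit families a, b, c, s and v), Sdha to Sdhd, Uqcr, Cox4 to Cox8 and Atp5 for which 3 or more libraries reached a normalized count of 10. Of 85 such rows, 81 passed this filter, among the 22915 genes of the table and the 13184 genes that passed the same filter. The 81 comprise 37 subunits of complex I, 4 of complex II, 8 of complex III, 15 of complex IV and 17 of complex V. The 4 rows under the filter were Cox4i2, Cox6b2, Cox7b2 and Ndufa4l2, whose normalized counts lay between 0 and 9. Assignment followed the gene name, so that Ndufa4, now regarded as a subunit of complex IV, and Cox7a2l, a factor that joins complexes into supercomplexes, were counted with the complex they are named for. Ndufb1-ps and Cox5b-ps carry pseudogene names but are listed as protein-coding. The table holds 0 rows of the mitochondrial chromosome, and the mitochondrially encoded subunits were not analysed here.

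Cardiomyocytes of male C57/Bl6 mice, 12 weeks of age, were cultured in normoxia for 24 h with PBS, murine LIF (mLIF), murine OSM (mOSM) or hlOSM, with 3 libraries per condition. mLIF binds the LIFR, mOSM the OSMR, and hlOSM is murine OSM that carries the AB loop of the human protein and engages both receptors. The labels give a dose of 25 ng/mL for each cytokine, whereas the study's methods state a slightly lower one, and PBS served as the vehicle for all. The study's methods speak of biological replicates, but neither source says whether the 3 libraries of a condition came from separate animals or cell preparations. P-values measure the spread between these libraries, which may in part be technical.

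The respiratory chain lies in the inner mitochondrial membrane. Complexes I and II pass electrons from NADH and succinate to ubiquinone, complex III hands them on to cytochrome c, and complex IV reduces oxygen. Complexes I, III and IV pump protons, and complex V uses the gradient to make ATP. The heart is among the tissues richest in these complexes, and several subunits of complex IV have a form restricted to heart and skeletal muscle beside a form found in most tissues.

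Library totals ranged from 2745748 to 2911891 on the deposited scale, which differs from read numbers. The study's methods state an average read number, but that of each library is not given in the sources used here. The 81 subunits held 0.770% ± 0.023 (SD, n = 3) of a library's total in PBS. All 10 cardiomyocyte markers were detected in each library, and their summed normalized count lay between 52122 and 54292 in PBS, 45607 and 47706 in mLIF, 37314 and 41856 in mOSM, and 38162 and 40795 in hlOSM. Most of this sum was Ttn, at 32687 to 33150 in PBS, 27991 to 29187 in mLIF, 21576 to 24076 in mOSM and 22374 to 24446 in hlOSM. Endothelial markers (8 genes) added up to 1167 to 1232 in PBS and 1421 to 1635 with mOSM, and the sums of fibroblast markers (8 genes) were 2296 to 2526 and 2459 to 2885. With hlOSM the corresponding sums were 1425 to 1543 and 2307 to 2540. Of the 8 endothelial markers, 5 were raised with mOSM and 5 with hlOSM (62.5%, against 15.4% and 18.2% of all genes). In a fit that blocks on replicate number, 5 and 4 were raised. The medians of the 8 were 0.34 and 0.28, and 1 marker, Cldn5, had negative values (−0.22 and −0.47). With mLIF, 1 endothelial marker was lowered and 0 were raised. The members of the fibroblast list moved apart. Col3a1 and Dcn were raised with mOSM and hlOSM and Lum with hlOSM, whereas mOSM lowered 3 (Pdgfra, Col1a2 and Tcf21) and hlOSM these and 2 more. These calls were 62.5% and 100% of the 8, against 31.2% and 37.9% of all genes. With the block, 2 were raised and 3 lowered with mOSM, and 2 were raised and 5 lowered with hlOSM. The list medians were −0.16 and −0.37. Smooth muscle and pericyte markers (8 genes) added up to 1475 to 1845 in PBS, 986 to 1063 with mOSM and 923 to 997 with hlOSM. Abcc9 alone had 925, 858 and 1017 of this sum in PBS, 711, 677 and 668 with mOSM and 588, 657 and 682 with hlOSM. Of 7 tested, 6 were lowered with each of mOSM and hlOSM (85.7%, against 15.8% and 19.8% of all genes), and 1 had positive values. With mLIF 1 was lowered (14.3% against 4.44%). Leukocyte markers (8 genes) added up to 309 to 335 in PBS, 353 to 393 with mOSM and 328 to 399 with hlOSM. Of 6 leukocyte markers tested, Cd68 alone was raised with each cytokine. Its values were 40 to 61 in PBS, 70 to 88 with mLIF, 108 to 143 with mOSM and 109 to 170 with hlOSM. Lyz2, the highest in PBS, was lowered with hlOSM (164 to 184 against 135 to 163), and 1 marker was lowered with mOSM (0 with the block). The medians of these 6 were 0.015 and −0.16. With mLIF the endothelial, fibroblast, smooth muscle and leukocyte sums lay at 1160 to 1219, 2110 to 2251, 1358 to 1424 and 288 to 327. The part of these shifts in the values below was not tested, and in bulk RNA fewer cells of a type cannot be told apart from less RNA per cell.

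None of the 81 subunits differed from PBS by as much as 1.5-fold with any cytokine. With mLIF, limma called 0 raised and 0 lowered at an adjusted p under 0.05, and 11 subunits (13.6%) had an unadjusted p under 0.05, as did 25.7% of all genes. Of all genes tested, 9.91% passed the adjusted threshold with mLIF (5.47% raised and 4.44% lowered). With mOSM, 1 subunit was raised (Cox8a) and 3 were lowered (Ndufs1, Ndufa10 and Cox7c), or 4.94% of the subunits against 31.2% of all genes (15.4% raised and 15.8% lowered). With hlOSM, 1 was raised (Cox8a) and 6 were lowered (Ndufs1, Ndufv1, Ndufa8, Ndufa10, Ndufv3 and Atp5c1), or 8.64% against 37.9% of all genes (18.2% raised and 19.8% lowered). A fit that blocks on replicate number gave 0 raised and 2 lowered with mOSM, 1 raised and 5 lowered with hlOSM, and 0 for mLIF, and called 25.3%, 31.2% and 5.95% of all genes. The deposited values held less difference between replicate numbers than unrelated libraries would: the numbers took 1.70% of the variance within conditions, where they hold 25.0% of the degrees of freedom. A replicate term may therefore have been removed before deposit, which the sources do not state. If so, the 8 residual degrees of freedom of the fit without the block are too many, its p-values too small, and the fit with the block, which has 6, is the safer of the pair.

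Fold changes were small and leaned downward. The median log2 fold change of the 81 subunits came to −0.050 for mLIF, −0.076 for mOSM and −0.072 for hlOSM, beside medians between −0.005 and 0.000 over all genes tested. Negative values were found for 55, 55 and 52 of the 81. The standard error of a subunit's log2 fold change had a median of 0.086, against 0.108 over all genes. The 95% confidence interval stayed within 1.5-fold in either direction for 78, 76 and 76 subunits with mLIF, mOSM and hlOSM, and for 71.1%, 62.7% and 60.0% of all genes. The 3 hlOSM libraries lay entirely below the 3 PBS libraries for 21 subunits and entirely above for 3, together 29.6% of the subunits against 47.0% of all genes without overlap. With mLIF and mOSM, 11 subunits each (13.6%) had no overlap with PBS, against 30.3% and 40.1% of all genes.

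**Figure D1:**
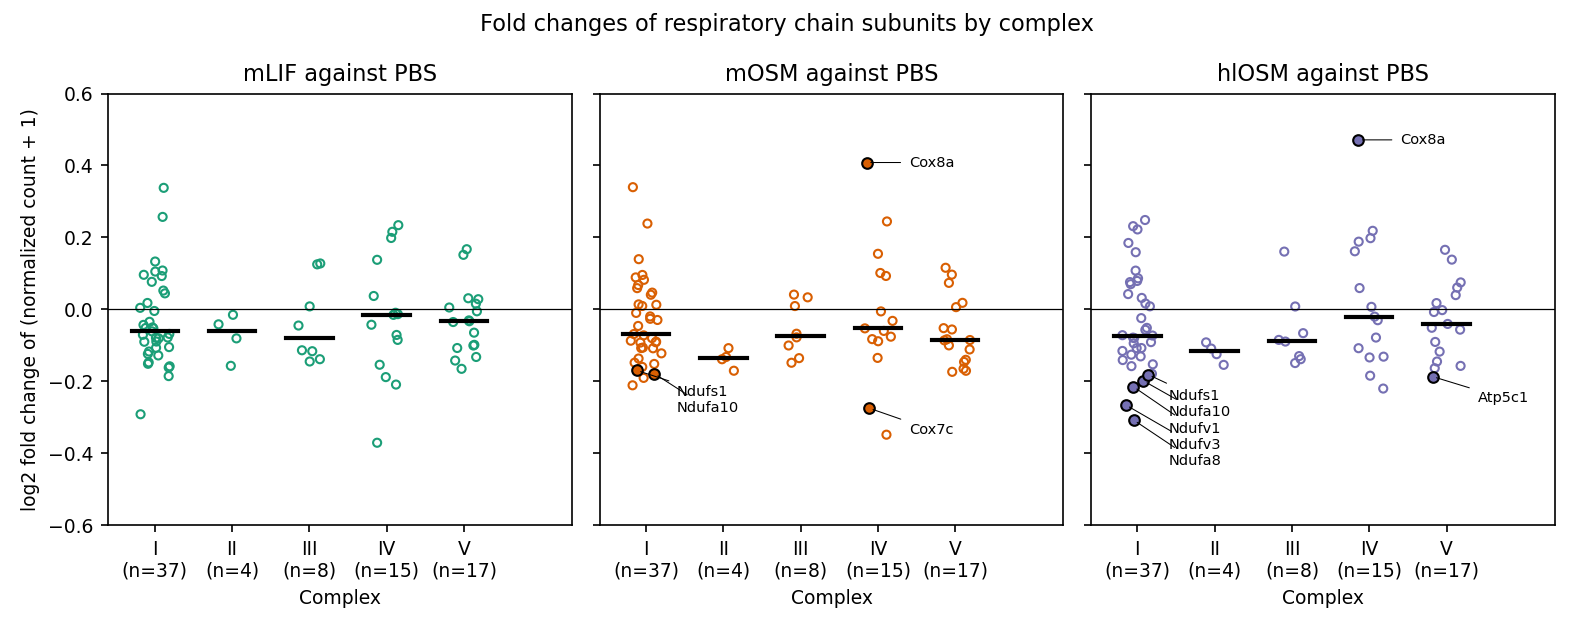
Log2 fold changes of log2(normalized count + 1) against PBS for the 81 subunits, by complex (x axis) and cytokine (panels); open circles did not pass and filled, named circles passed an adjusted p under 0.05 in limma, and bars are medians. Most points lie within 0.2 of 0, and Cox8a stands highest with mOSM and hlOSM, at 0.41 and 0.47.

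These counts rested on single libraries. In the first mOSM library, all 81 subunits were below the mean of their condition, where 53.3% of all genes were, and 39 of the 81 had their lowest value of the 12 libraries there. The third PBS library was above its condition's mean for 71 subunits and the highest of all libraries for 29. The number lowered with mOSM was 0 without mOSM replicate 1, 0 without PBS replicate 3, 1 without mOSM replicate 2, 5 without PBS replicate 2 and 19 without mOSM replicate 3. With hlOSM, the number lowered was 1 (Ndufs1) without PBS replicate 3, and between 4 and 7 without any other library.

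By complex, the median log2 fold changes for mLIF, mOSM and hlOSM were −0.061, −0.068 and −0.073 in complex I, −0.061, −0.14 and −0.12 in complex II, −0.079, −0.073 and −0.087 in complex III, −0.015, −0.053 and −0.020 in complex IV, and −0.033, −0.085 and −0.040 in complex V. The medians of complexes II and III stayed below 0 with each library left out, and those of complex I did so for mLIF and hlOSM. For complex III with mOSM the highest such median was −0.00024, close to 0. Without mOSM replicate 1 the mOSM medians of complexes I and IV were 0.024 and 0.023. Without PBS replicate 3 the hlOSM medians of complexes IV and V were 0.0052 and 0.024 and the mLIF medians 0.011 and 0.015.

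**Figure D2:**
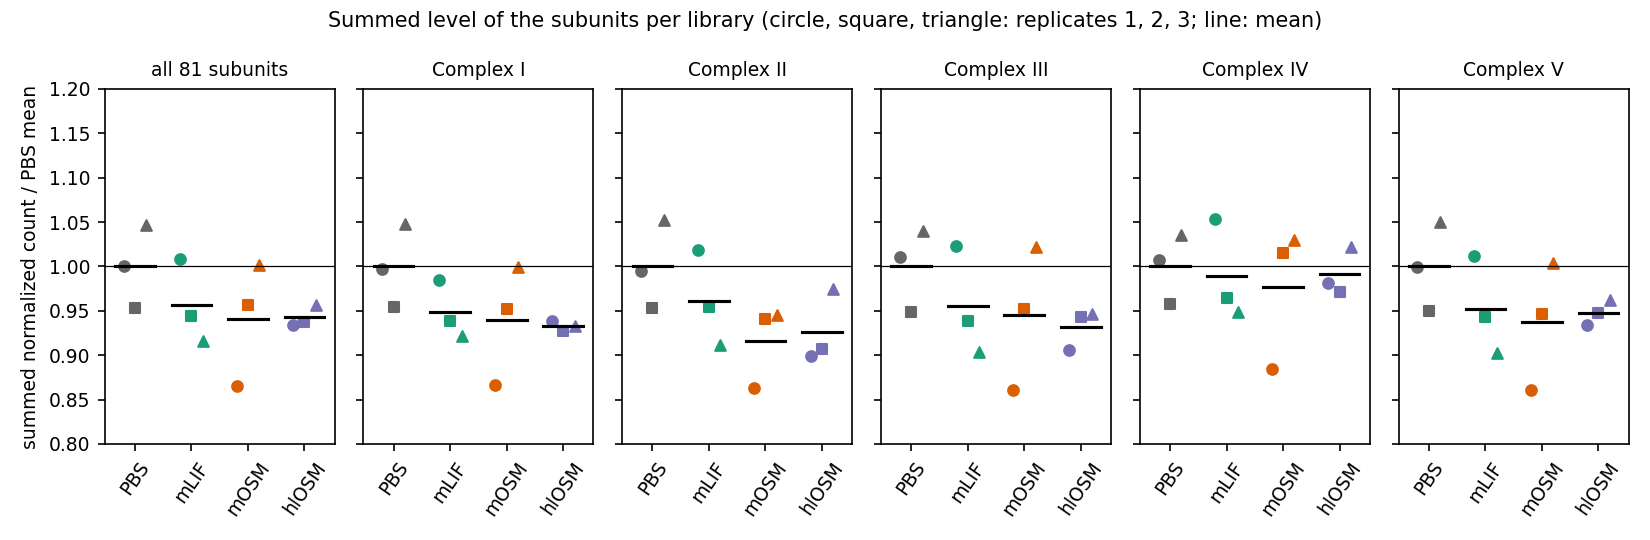
Summed normalized count of all 81 subunits and of each complex in every library, divided by the mean of the 3 PBS libraries; symbols mark the replicate number and lines the mean of a condition. The first mOSM library is lowest in every panel, and the hlOSM libraries lie close together in complex I.

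Summed over all subunits, the PBS libraries reached 22041 ± 1035 (SD, n = 3), the mLIF libraries 21077 ± 1047, the mOSM libraries 20744 ± 1524 and the hlOSM libraries 20778 ± 268. The mLIF and mOSM libraries overlapped with PBS, and the hlOSM libraries reached from 20583 to 21083, a range that overlaps with the lowest PBS library at 21002. Mean sums with hlOSM were below PBS by 6.73% in complex I, 7.35% in complex II, 6.81% in complex III, 0.874% in complex IV and 5.21% in complex V. With mOSM these values were 6.07%, 8.40%, 5.51%, 2.36% and 6.31%, and with mLIF 5.14%, 3.86%, 4.48%, 1.12% and 4.76%. Complex IV thus had the smallest difference in each cytokine. It held 11.1% ± 0.10 of the summed subunits in PBS and 11.4% ± 0.13, 11.5% ± 0.24 and 11.6% ± 0.18 in mLIF, mOSM and hlOSM (SD, n = 3). All 9 cytokine libraries lay above the 3 PBS libraries in this share. Complex I held between 36.9% and 38.1% in every library and complex V between 27.5% and 28.3%.

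The core of complex I carries the flavin and iron-sulfur clusters that take up electrons from NADH. Of its 7 nuclear-encoded subunits, Ndufs1 and Ndufv1 were lowered with hlOSM (28.6%, against 19.8% of all genes) and Ndufs1 also with mOSM (14.3% against 15.8%), shares near those of all genes, and 6 of 7 had negative values in each cytokine, with medians of −0.090, −0.15 and −0.13 for mLIF, mOSM and hlOSM. The remaining 30 supernumerary subunits, which surround the core and help in its assembly and stability, had medians of −0.051, −0.028 and −0.064, with 3 lowered by hlOSM (Ndufa8, Ndufa10 and Ndufv3) and 1 by mOSM (Ndufa10). These falls were 10% and 3.33% of the 30, against 19.8% and 15.8% of all genes.

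Ndufs1, the large iron-sulfur subunit of the NADH-oxidizing arm (chromosome 1, 63143596 to 63176833, minus strand, mm10), had normalized counts of 1090, 1053 and 1134 in PBS. They were 1017, 1019 and 1006 in mLIF, 939, 946 and 1030 in mOSM and 961, 972 and 956 in hlOSM. All 9 cytokine libraries were below the lowest PBS library. The log2 fold change for mLIF was −0.11 ± 0.050 (SE; adjusted p = 0.18), that for mOSM −0.17 ± 0.050 (adjusted p = 0.013), and that for hlOSM −0.18 ± 0.050 (adjusted p = 0.0068), or 11.8% lower. Of the 11 calls of a subunit against PBS, that of Ndufs1 with hlOSM was the one that passed without any of the 6 libraries compared, with an adjusted p of at most 0.043.

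Ndufv1, which binds NADH and the flavin (chromosome 19, 4007384 to 4012806, minus strand), had normalized counts of 620, 577 and 662 in PBS, 583, 571 and 545 in mLIF, 514, 546 and 620 in mOSM and 542, 552 and 506 in hlOSM. The hlOSM libraries lay below PBS, and the mLIF and mOSM libraries overlapped with it. Its log2 fold change with hlOSM was −0.21 ± 0.067 (adjusted p = 0.015). It did not pass with mOSM, where the value was −0.15 (adjusted p = 0.10). The core subunits Ndufs7 and Ndufv2, which carry further iron-sulfur clusters, had values of −0.14 and −0.11 with hlOSM and did not pass (adjusted p of 0.11 and 0.22). Ndufs8 was the core subunit with a positive value in each cytokine, at 0.16 with hlOSM (adjusted p = 0.23).

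Ndufa8, a supernumerary subunit on the intermembrane side (chromosome 2, 36036326 to 36049406, minus strand), had the largest fall of the 81 with hlOSM among those that passed. Its normalized counts were 203, 171 and 217 in PBS, 191, 190 and 176 in mLIF, 163, 187 and 198 in mOSM and 160, 165 and 150 in hlOSM. The hlOSM libraries were below all PBS libraries, the closest being 165 against 171. The log2 fold change was −0.31 ± 0.090 (adjusted p = 0.0096), or 19.2% lower, and −0.11 with mOSM (adjusted p = 0.40). The direct difference between hlOSM and mOSM was −0.20 (95% interval −0.39 to −0.015, adjusted p = 0.63).

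Ndufa10 (chromosome 1, 92439010 to 92473860, minus strand) had normalized counts of 706, 688 and 768 in PBS, 660, 648 and 623 in mLIF, 602, 633 and 675 in mOSM and 636, 625 and 621 in hlOSM. As for Ndufs1, all 9 cytokine libraries were below PBS. The log2 fold changes were −0.16 (adjusted p = 0.073), −0.18 (adjusted p = 0.020) and −0.20 (adjusted p = 0.0084), each with an SE of 0.057.

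Ndufv3, a small subunit bound to the flavoprotein part (chromosome 17, 31520115 to 31531331, plus strand), had values of 173, 169 and 184 in PBS, 142, 144 and 143 in mLIF, 140, 141 and 183 in mOSM and 158, 155 and 126 in hlOSM. The mLIF and hlOSM libraries did not overlap with PBS, whereas the third mOSM library did. With hlOSM the log2 fold change was −0.27 ± 0.10 (adjusted p = 0.041, or 0.069 with the replicate number as a block). With mLIF it was −0.29, the lowest value of complex I in that comparison, and did not pass (adjusted p = 0.067).

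**Figure D3:**
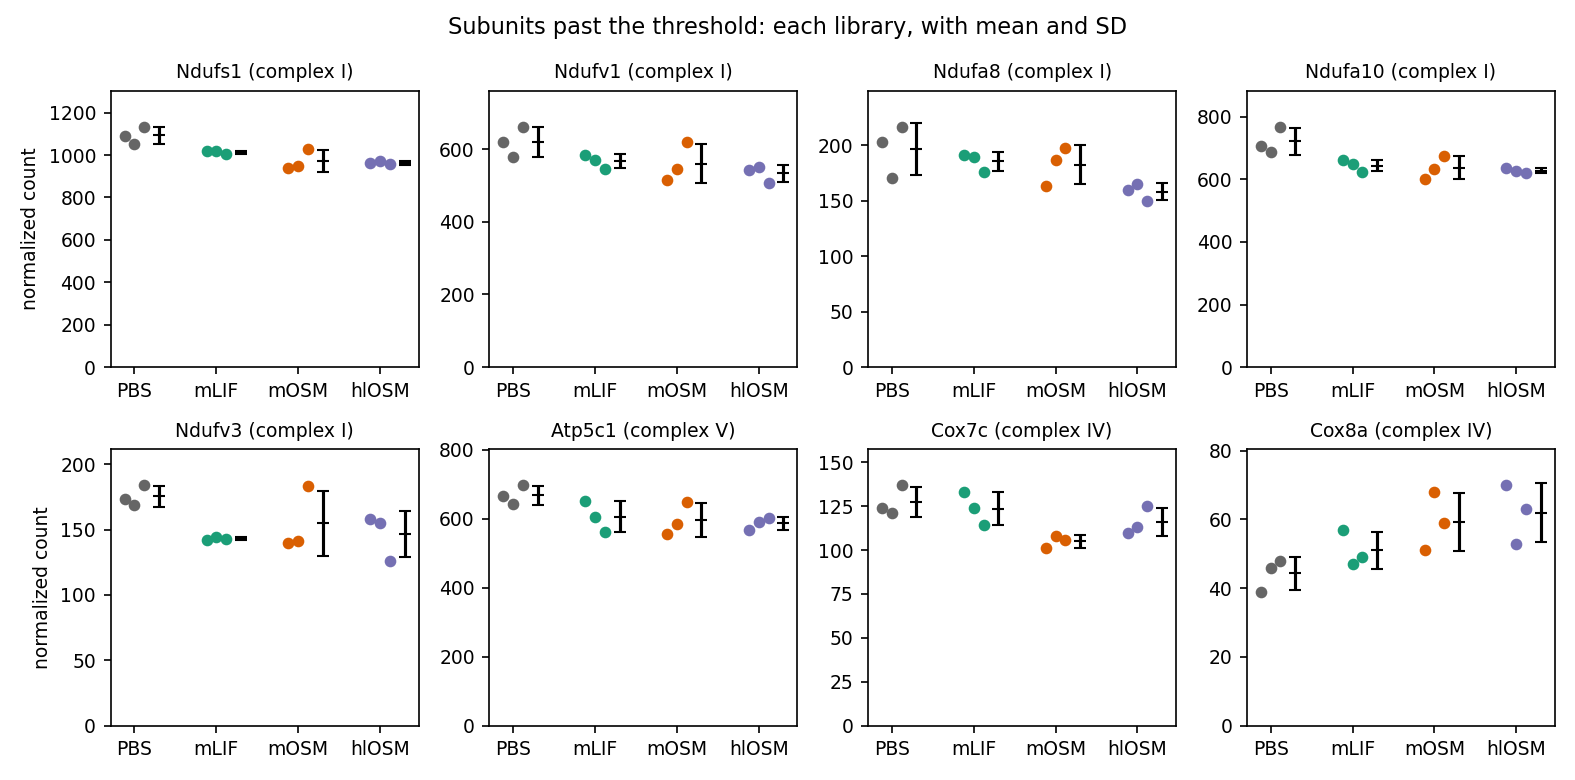
Normalized counts of the 8 subunits that passed the threshold with mOSM or hlOSM, one panel each, with every library as a point and the mean ± SD of 3 libraries beside it; all y axes start at 0. For Ndufs1 and Ndufa10 all cytokine libraries lie below PBS, and for Cox8a all mOSM and hlOSM libraries lie above it.

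Complex II, the succinate dehydrogenase that also serves in the citric acid cycle, is made of nuclear-encoded subunits alone. All 4 had negative log2 fold changes in each cytokine, from −0.16 to −0.015 with mLIF, −0.17 to −0.11 with mOSM and −0.15 to −0.092 with hlOSM, and none passed (limma, adjusted p of 0.054 or more; 1 subunit in each cytokine had an unadjusted p under 0.05, as had 25.7%, 41.1% and 46.5% of all genes). The catalytic flavoprotein Sdha had normalized counts of 1069, 1027 and 1125 in PBS and 970, 978 and 1076 with hlOSM, with overlap. Sdhd, one of the membrane anchors, had 311, 303 and 338 in PBS, 271, 287 and 287 with mOSM and 279, 275 and 301 with hlOSM. Its mOSM and hlOSM libraries were all below PBS, with log2 fold changes of −0.17 (adjusted p = 0.054) and −0.15 (adjusted p = 0.071). The 95% intervals for hlOSM ran from −0.27 to 0.019 for the iron-sulfur subunit Sdhb and from −0.24 to 0.027 for the anchor Sdhc.

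In complex III none of the 8 subunits passed (limma), and 1 subunit in each cytokine had an unadjusted p under 0.05. That is 12.5% of the 8, against 25.7%, 41.1% and 46.5% of all genes with mLIF, mOSM and hlOSM. The hlOSM libraries of 4 subunits lay entirely below PBS, so that 50% had no overlap, a share near the 47.0% of all genes. The Rieske iron-sulfur protein Uqcrfs1 had normalized counts of 629, 595 and 640 in PBS, 609, 550 and 529 in mLIF, 510, 559 and 617 in mOSM and 545, 575 and 573 in hlOSM. Its log2 fold changes were −0.14, −0.15 and −0.14, with adjusted p of 0.18, 0.098 and 0.11. The core protein Uqcrc1 had 781, 732 and 804 in PBS and 683, 713 and 692 with hlOSM, a log2 fold change of −0.15 (adjusted p = 0.090). For the other core protein, Uqcrc2, the value with hlOSM was −0.089 (adjusted p = 0.27). The small hinge protein Uqcrh had a positive value in each cytokine, 0.16 with hlOSM (adjusted p = 0.15).

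Complex IV contained the subunit with the largest change. Cox8a, the form of subunit VIII found in most tissues (chromosome 19, 7215153 to 7217616, minus strand), had normalized counts of 39, 46 and 48 in PBS. They were 57, 47 and 49 in mLIF, 51, 68 and 59 in mOSM and 70, 53 and 63 in hlOSM. All mOSM and hlOSM libraries exceeded PBS, and the mLIF libraries overlapped with it. Log2 fold changes were 0.20 ± 0.14 (adjusted p = 0.40), 0.41 ± 0.14 (adjusted p = 0.031) and 0.47 ± 0.14 (adjusted p = 0.012), the last being 38.6% higher on the log2(value + 1) scale. In the fit with the block, the adjusted p was 0.072 with mOSM and 0.031 with hlOSM. The call with hlOSM was lost without PBS replicate 1 or hlOSM replicate 1, where 0 subunits were raised. The hlOSM count was 2 without PBS replicate 3 and 3 without hlOSM replicate 2.

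Cox8b, the form of heart and skeletal muscle (chromosome 7, 140898945 to 140900446, minus strand), had normalized counts of 146, 150 and 159 in PBS, 165, 141 and 145 in mLIF, 134, 151 and 143 in mOSM and 139, 139 and 153 in hlOSM. The conditions overlapped, and the log2 fold changes were −0.015, −0.088 and −0.078 (adjusted p of 0.93, 0.46 and 0.49). Per kilobase of the main transcript, Cox8a made up 16.0% ± 1.0 (SD, n = 3) of the sum of both forms in PBS. With mLIF its share was 18.2% ± 0.27, with mOSM 21.3% ± 1.4 and with hlOSM 22.0% ± 2.5. The highest PBS library was at 16.7% and the lowest of the 9 cytokine libraries at 17.9%. With the length of all exons in place of the main transcript, the means were 14.5%, 16.5%, 19.4% and 20.0%.

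The promoters of both genes are shown because these forms of a single subunit had values of opposite sign. Sequences are from RefSeq (GRCm38.p6) and run from 250 bases before to 50 bases after the annotated start, on the minus strand. For Cox8a this is chr19:7217567-7217866 and for Cox8b chr7:140900397-140900696. Capitals mark the letters CCGGAAGT of the GABP (NRF-2) motif on either strand and the letters TATAAA.
Cox8a: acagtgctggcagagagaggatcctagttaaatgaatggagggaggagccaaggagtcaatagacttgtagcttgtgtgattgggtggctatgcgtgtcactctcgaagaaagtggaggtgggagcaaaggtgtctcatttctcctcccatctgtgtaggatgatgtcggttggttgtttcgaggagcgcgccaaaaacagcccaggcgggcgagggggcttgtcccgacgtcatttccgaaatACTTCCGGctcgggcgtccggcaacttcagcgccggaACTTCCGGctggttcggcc
Cox8b: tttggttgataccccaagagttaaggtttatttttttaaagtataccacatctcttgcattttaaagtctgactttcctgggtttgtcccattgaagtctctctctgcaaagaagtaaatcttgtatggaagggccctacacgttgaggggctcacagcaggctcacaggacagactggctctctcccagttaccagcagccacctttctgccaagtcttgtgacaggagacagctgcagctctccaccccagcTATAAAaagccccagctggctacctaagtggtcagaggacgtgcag
Cox8a held the GABP letters at 2 places, on the opposite strand, beginning 6 bases before and at base 32 after the start. Cox8b held TATAAA once, beginning at base 5 after the annotated start. TATAAA was searched after the sequences were seen.

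Promoters were found for 66 of the 81 subunits. GABP letters were present in 7.58% of these and in 4.31% of all 27025 genes with a promoter, searched on both strands. These 27025, called all genes in this paragraph, include genes that were not tested here. The shares among the tested genes alone were not examined. The NRF1 motif (the letters GCGC, any base, then TGCGC) was present in 17 of the 66 (25.8%, against 5.19% of all genes), those of YY1 (AAGATGGC) in 10 (15.2% against 3.19%) and those of the estrogen-related receptors (AAGGTCA) in 8 (12.1% against 5.38%). The STAT letters TTCNNNGAA were present in 5 (7.58% against 9.55%) and TATAAA in 7 (10.6% against 15.7%). NRF1 letters occurred in 7 of 32 promoters of complex I, 2 of 3 of complex II, 1 of 5 of complex III, 1 of 11 of complex IV and 6 of 15 of complex V. Of the 7 subunits that passed and had a promoter, Ndufa8 and Atp5c1 held NRF1 letters and Ndufa8 also STAT letters.

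The other paired forms of complex IV did not pass. Cox7a1, the muscle form of subunit VIIa, had log2 fold changes of −0.013, −0.060 and 0.007. The broadly expressed Cox7a2 had normalized counts of 114, 117 and 117 in PBS, 142, 132 and 136 in mLIF, 125, 137 and 126 in mOSM and 130, 122 and 146 in hlOSM. All 9 cytokine libraries exceeded PBS, with log2 fold changes of 0.23, 0.15 and 0.19 (adjusted p of 0.082, 0.18 and 0.085). Its share of both forms per kilobase was 28.9% ± 1.2 in PBS and 32.5% ± 0.53, 32.0% ± 1.2 and 31.5% ± 1.7 with mLIF, mOSM and hlOSM (SD, n = 3). The muscle form Cox6a2 had values of 0.14, 0.093 and 0.16, and Cox6a1, with normalized counts of only 14 to 27 in all libraries, made up 16.5%, 13.3%, 18.1% and 17.1% of the pair in PBS, mLIF, mOSM and hlOSM. Cox7a2l had −0.22 with hlOSM (adjusted p = 0.063), and Ndufa4 −0.073 (adjusted p = 0.51).

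**Figure D4:**
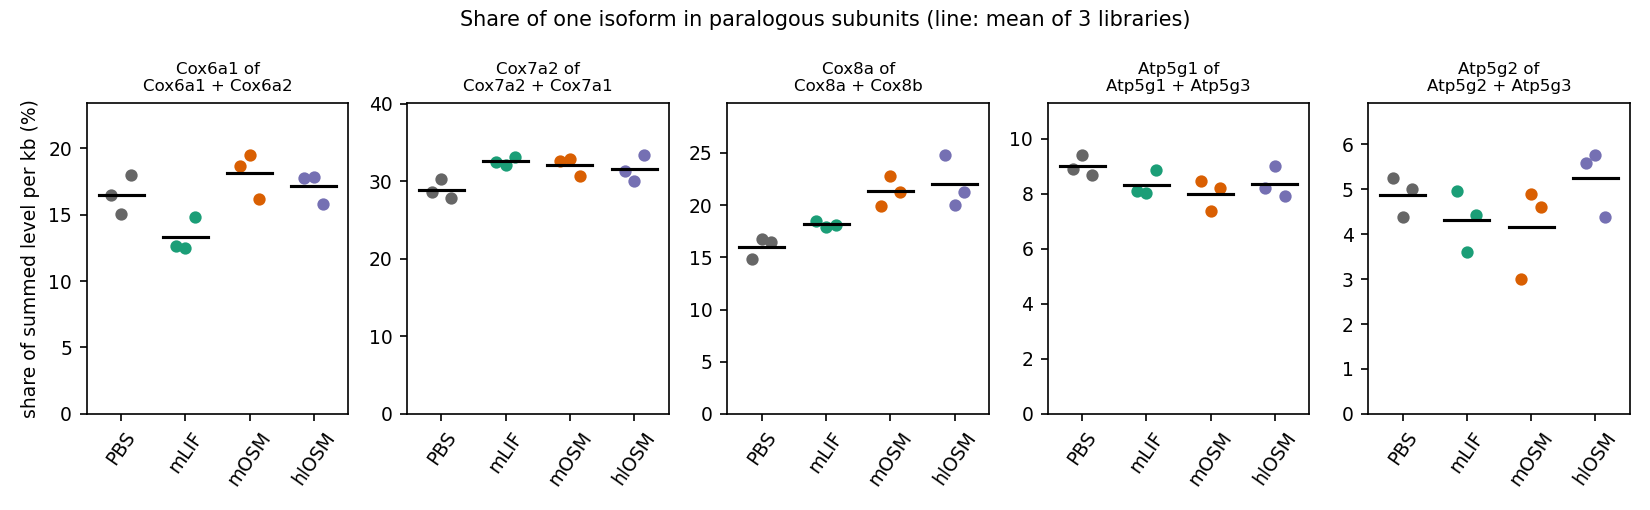
Share of one form in the summed level per kilobase of a pair of paralogous subunits, in percent, for every library of the 4 conditions; lines are means of 3 libraries. The mean share of Cox8a in its pair is 16.0% in PBS and 22.0% with hlOSM. The shares of Atp5g1 and Atp5g2 stay below 10% with the main-transcript lengths used here, 4715 nt for Atp5g1 and 723 nt for Atp5g3.

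Cox7c, a small subunit without a tissue form (chromosome 13, 86044816 to 86046904, minus strand), was lowered with mOSM. Its normalized counts were 124, 121 and 137 in PBS, 133, 124 and 114 in mLIF, 101, 108 and 106 in mOSM and 110, 113 and 125 in hlOSM. The mOSM libraries lay below all libraries of the other conditions. The log2 fold change was −0.27 ± 0.090 (adjusted p = 0.023, or 0.060 with the replicate number as a block) with mOSM and −0.13 (adjusted p = 0.26) with hlOSM. Cox4i1, Cox5a and Cox5b, the largest nuclear subunits of the complex, had values of −0.13, 0.20 and −0.030 with hlOSM (adjusted p of 0.16, 0.13 and 0.81). Cox6b1 and Cox7b were at 0.059 and −0.11 (adjusted p of 0.65 and 0.31).

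In complex V, Atp5c1 was lowered with hlOSM. It encodes the γ subunit, the rotating shaft of the F1 head (chromosome 2, 10056016 to 10080510, minus strand). Its normalized counts were 665, 642 and 698 in PBS, 652, 606 and 561 in mLIF, 555, 586 and 650 in mOSM and 567, 592 and 602 in hlOSM. The hlOSM libraries were below PBS, while mLIF and mOSM overlapped. The log2 fold changes were −0.14 (adjusted p = 0.17), −0.17 (adjusted p = 0.057) and −0.19 (adjusted p = 0.027), each with an SE of 0.065. The call was lost when any one of 4 of the 6 libraries compared was left out.

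The catalytic β subunit Atp5b, with 1415, 1380 and 1489 normalized counts in PBS and 1326, 1360 and 1336 with hlOSM, had a log2 fold change of −0.090 (adjusted p = 0.33). Its hlOSM libraries lay below PBS. For the α subunit Atp5a1 the value was −0.12 (adjusted p = 0.13), and for Atp5o, part of the stalk, it was −0.0023 (adjusted p = 0.99). Of the 5 subunits of the F1 head, 4 were negative in each cytokine. The c-ring, the rotor in the membrane, is encoded by 3 genes that yield the same mature protein, and Atp5g3 was the highest of them per kilobase, at 363 in PBS. Beside it Atp5g1 made up 8.99% of the pair in PBS per kilobase of the main transcript and 22.2% with the length of all exons. The main transcript taken was 4715 nt long for Atp5g1 and 723 nt for Atp5g3. Their mean normalized counts in PBS were 169 and 262, so the share rests on the lengths taken. Which transcripts the cells made was not examined. Atp5g3 had 0.15, 0.074 and 0.075 as log2 fold changes for mLIF, mOSM and hlOSM, and none of the 3 genes passed.

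Levels per kilobase of the main transcript spanned a wide range. Atp5b, Atp5a1 and Atp5c1 were highest in PBS, at 745, 585 and 573 normalized counts per kilobase, and Ndufb2 and Atp5g2 were lowest, at 10.6 and 18.7. With the length of all exons, Atp5a1, Uqcrfs1 and Cox8b were highest, at 461, 456 and 421, and Atp5b was at 337. Ndufb2 and Atp5g2 remained lowest. For Ndufb2 both lengths were long, at 4371 nt and 5628 bp, beside a mean normalized count of 46.3 in PBS. Its low place thus rests on the lengths taken. The median per complex in PBS was 188 for complex I, 314 for II, 341 for III, 236 for IV and 249 for V. Subunits with higher levels tended to have lower fold changes: Spearman's rho between level and log2 fold change over the 81 subunits came to −0.31, −0.48 and −0.46 for mLIF, mOSM and hlOSM, against −0.085, −0.039 and −0.038 over 11828 protein-coding genes. With transcript length the values were −0.28, −0.42 and −0.37 against −0.11, −0.14 and −0.14. The points share their libraries, and level and length go together in normalized counts.

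Between cytokines, limma called 0 subunits. In mOSM against mLIF 4 subunits had an unadjusted p under 0.05, in hlOSM against mLIF 3, in hlOSM against mOSM 1 and in the interaction of both receptor arms 1. Over all genes these shares were 24.4%, 28.6%, 7.49% and 11.5%, and 11.8%, 16.6%, 0.106% and 0.167% passed the adjusted threshold. Ndufa7, a supernumerary subunit of complex I, had the smallest adjusted p in mOSM against mLIF. It had normalized counts of 111, 107 and 112 with mLIF and 87, 97 and 90 with mOSM, a log2 difference of −0.27 (95% interval −0.46 to −0.076, adjusted p = 0.063). Atp5j, which links the stator stalk of complex V, had 278, 267 and 244 with mLIF and 313, 279 and 318 with hlOSM, a log2 difference of 0.20 (95% interval 0.054 to 0.36, adjusted p = 0.059). Both were chosen after their values were seen. The 95% interval of hlOSM against mOSM stayed within 1.5-fold for 78 of the 81 subunits, against 77.2% of all genes.

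Genes around the chain were described by lists. Of 52 assembly factors tested, which build the complexes but are not part of them, 0 passed with mLIF, 1 was raised and 2 lowered with mOSM, and 2 were raised and 5 lowered with hlOSM, with medians of 0.022, −0.029 and −0.044. The 3 called with mOSM and the 7 with hlOSM were 5.77% and 13.5% of the list, against 31.2% and 37.9% of all genes. The fit with the block gave 0 raised and 2 lowered with mOSM and 2 raised and 3 lowered with hlOSM. Tmem126b, a factor of complex I assembly, had 183, 179 and 230 normalized counts in PBS, 151, 150 and 159 with mOSM and 145, 153 and 138 with hlOSM, and log2 fold changes of −0.35 (adjusted p = 0.0042) and −0.43 (adjusted p = 0.00060). The complex I factors Foxred1 and Ndufaf7 were lowered with hlOSM, at −0.31 and −0.32 (adjusted p of 0.0050 and 0.045, or 0.013 and 0.085 with the replicate number as a block). Among factors of complex IV, Coa3 and Cox19 were raised, at 0.50 and 0.24, and Coa5 was lowered, at −0.20 (adjusted p of 0.0053, 0.022 and 0.0039). None of the assembly factors of complexes II, III and V passed.

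Electron carriers and enzymes of ubiquinone synthesis moved in both directions. Of 20 tested, mLIF raised 1 and lowered 2, mOSM raised 2 and lowered 6, and hlOSM raised 3 and lowered 7. These are 15%, 40% and 50% of the list, against 9.91%, 31.2% and 37.9% of all genes. With the block, mLIF raised 0 and lowered 1, mOSM raised 2 and lowered 4, and hlOSM raised 2 and lowered 6. Coq9 and Coq8a, which serve ubiquinone synthesis, fell by 0.40 and 0.34 on the log2 scale with hlOSM (adjusted p of 0.00010 and 0.00039), and Pdss1, which makes the side chain, rose by 0.41 (adjusted p = 0.00078). Coq9 had normalized counts of 698, 657 and 737 in PBS and 530, 563 and 493 with hlOSM, without overlap. Cycs, the somatic cytochrome c, named after its value was seen, was lowered with hlOSM (log2 fold change −0.30, adjusted p = 0.0059). In the citric acid cycle 0 of 13 genes passed with mLIF, 2 were lowered with mOSM (1 with the block) and 3 with hlOSM (Ogdh, Idh3a and Sucla2, between −0.19 and −0.18). The falls with mOSM and hlOSM were 15.4% and 23.1% of the list, near the 15.8% and 19.8% of all genes that were lowered. Of 15 genes of protein import and porin, 0 passed with mLIF, 1 was raised and 1 lowered with mOSM (0 and 0 with the block), and 1 was raised (Tomm70a, 0.18) and 2 were lowered (Timm44, −0.23, and Timm17a, −0.19) with hlOSM. The calls with mOSM and hlOSM were 13.3% and 20% of the list, against 31.2% and 37.9% of all genes. Of 6 subunits or associated proteins that the naming rule leaves out, Atpif1 and Romo1 among them, 1 was lowered with hlOSM. This was Ndufab1 (−0.18, adjusted p = 0.027, or 0.067 with the replicate number as a block). That is 16.7% of the 6, against 19.8% of all genes lowered. Of 77 mitochondrial ribosomal proteins, mLIF raised 3 and lowered 0, mOSM raised 6 and lowered 0, and hlOSM raised 8 and lowered 2. With the block these counts were 1 and 0, 5 and 0, and 7 and 1. The ribosomal proteins called without the block were 3.90%, 7.79% and 13.0% of the list, against 9.91%, 31.2% and 37.9% of all genes.

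The regulators of mitochondrial biogenesis held the largest falls of the mitochondrial lists. Ppargc1a, which encodes the coactivator PGC-1α, had normalized counts of 419, 422 and 413 in PBS, 363, 374 and 382 in mLIF, 257, 244 and 261 in mOSM and 225, 225 and 240 in hlOSM. No libraries of different conditions overlapped. The log2 fold changes were −0.16 (adjusted p = 0.082), −0.72 (adjusted p = 5.3e-09) and −0.86 (adjusted p = 2.0e-10). Esrrg, a nuclear receptor that works with this coactivator, had 148, 153 and 206 in PBS, 93, 88 and 80 with mOSM and 81, 97 and 90 with hlOSM, at −0.94 and −0.90 (adjusted p of 1.5e-06 and 1.9e-06). In the same libraries the subunit with the largest fall that passed, Ndufa8 with hlOSM, was at −0.31. Of the 15 regulators, 0 passed with mLIF, and 2 were raised and 5 lowered with mOSM (2 and 2 with the block). With hlOSM 0 were raised and 3 lowered (2 with the block), among them Yy1 (−0.16, adjusted p = 0.045, or 0.077 with the replicate number as a block). Calls with mOSM and hlOSM made up 46.7% and 20% of this list, against 31.2% and 37.9% of all genes. With hlOSM regulators were thus called less often than all genes. Values were negative for 13 of the 15 with each of mOSM and hlOSM, with medians of −0.18 and −0.15, and reached up to 0.45 with mOSM. Of the 10 cardiomyocyte markers, 7 were lowered with mLIF (4 with the block) and 8 each with mOSM and hlOSM (8 each with the block), with median log2 fold changes of −0.23, −0.32 and −0.34. These falls were 70%, 80% and 80% of the markers, against 4.44%, 15.8% and 19.8% of all genes.

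**Figure D5:**
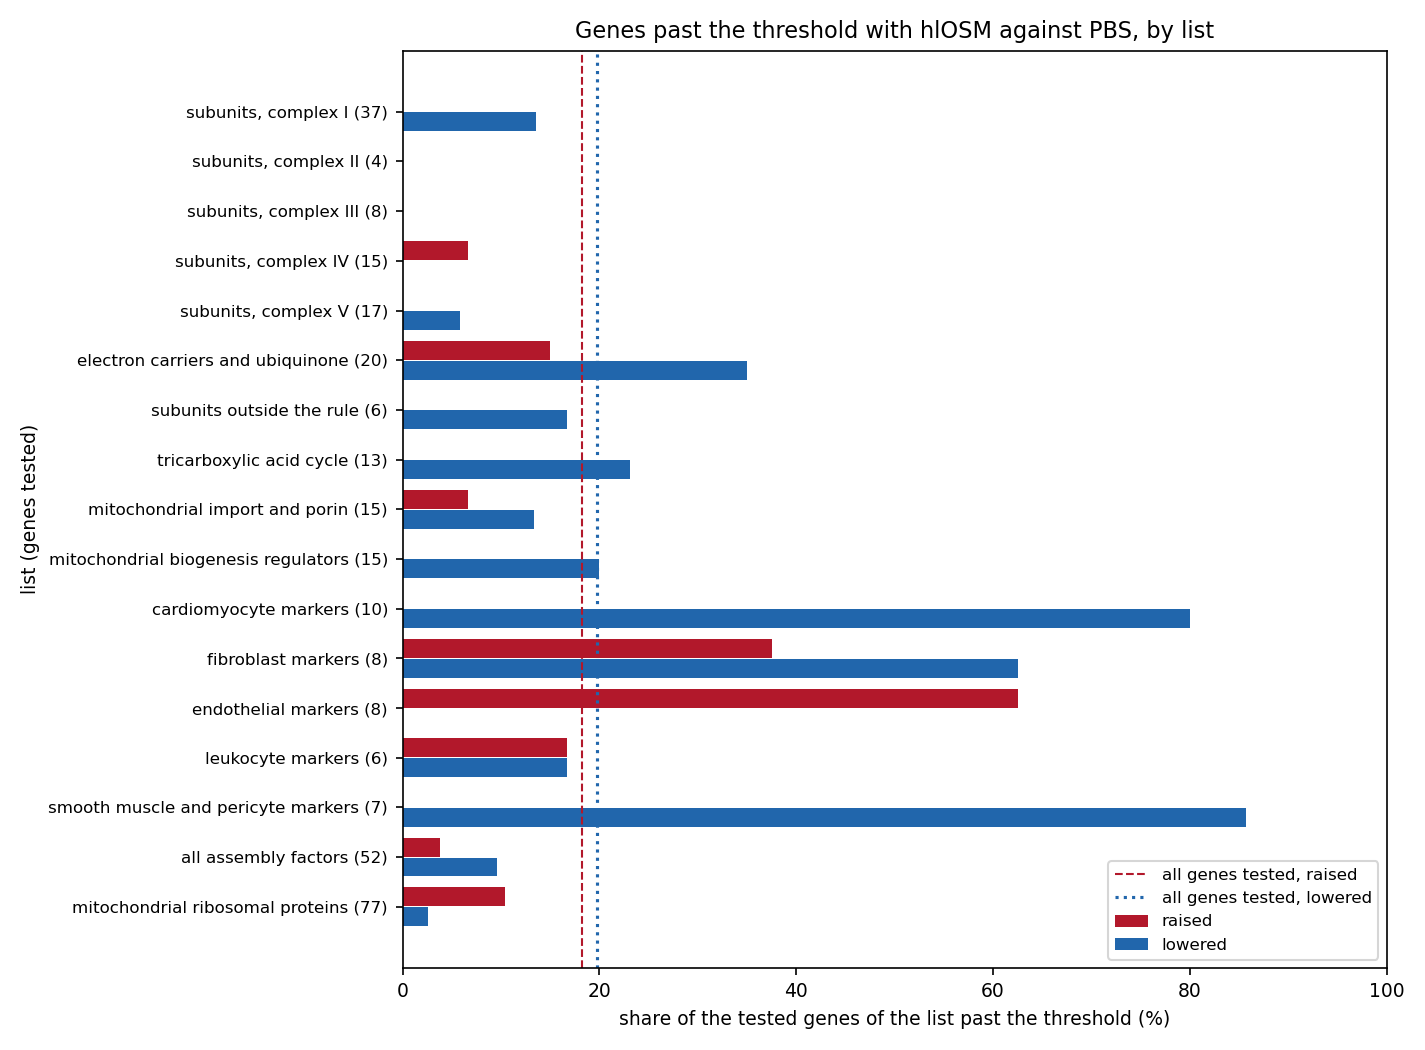
Share of the tested genes of each list that limma called raised (red) or lowered (blue) with hlOSM against PBS, in percent; the dashed and dotted lines are the shares among all 13184 genes tested, 18.2% raised and 19.8% lowered. The 5 groups of subunits lie below both lines, and cardiomyocyte markers reach 80.0% lowered.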

How the data were processed

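RNA-seq was available for 12 libraries, 3 per condition, grouped by their labels. After trimming, the authors aligned reads to mm10 with STAR 2.7.7a and assigned those on exons of one gene by featureCounts 1.6.5, then normalized and rounded the counts. What the authors deposited is a score (a rounded normalized count) and not a read count. The normalization method is not given in the sources used here, and a replicate term may have been removed with it. The counting left out reads that map to several places, so that subunits with processed pseudogenes may be understated. Gene coordinates are those of the table, and all 81 subunits had the same coordinates in the reference annotation.

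Differences were tested with limma 3.58.1 in R 4.3.3 (mean-variance trend, two-sided) on log2(normalized count + 1), with all libraries fitted together over 13184 genes, with Benjamini-Hochberg adjustment over all of them and a threshold of 0.05. Fold changes are on the log2(value + 1) scale and understate those of low genes. The fit was tested on simulated data. Correlations, shares and sums were computed with Python 3.11.15. The members and lists were chosen with earlier results of these data known. Named genes were the core subunits, the paralogous subunits, the 2 largest rises and falls per complex past the threshold in each cytokine, all members past the threshold between cytokines, and the 3 genes per list with the smallest adjusted p with hlOSM; of the genes that this rule takes, those without a value in the text did not pass or are not reported here, and Cox8c was not analysed here. Results were recomputed with the replicate number as a block, without each library in turn, from the 6 libraries of a comparison alone, with robust empirical Bayes, after rescaling by quantiles or trimmed means, with pseudocounts of 0.1 and 5, and with a filter at 50 or none. The main transcript was the annotated principal one, and the longest where several shared the best rank, whether or not the cells made it. The length of all exons in place of the main transcript was an alternative chosen after seeing the data.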

Additional observations from a re-analysis of the deposited data

How the results depend on the processing

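No result turned its direction past the threshold under an alternative. The number of subunits lowered with mOSM was 5 with a filter at 50 and 6 with quantile rescaling, and 0 to 19 with a library left out. With the replicate number as a block, mOSM raised 0 subunits. Without a library, mOSM raised 0 to 1, hlOSM raised 0 to 3 and lowered 1 to 7, and mLIF lowered 0 to 2, as it also did (2) in a fit of the 6 libraries compared. In mOSM against mLIF, 1 subunit was lowered with trimmed-mean or quantile rescaling. In hlOSM against mLIF, 1 was raised with trimmed-mean rescaling, 0 to 1 without a library, and 1 was lowered in a fit of the 6 libraries. The cause of these moves was not tested. The median of complex V with hlOSM was 0.024 without PBS replicate 3, and that of complex I with mOSM was 0.024 without mOSM replicate 1. Whether replicate numbers pair the libraries could not be read from the deposited values: all 18 correlations of deviations of same-numbered libraries lay between −0.41 and −0.15, around the −0.33 of deviations that sum to 0 over the conditions. The depth of each library and the scaling of its values are not given in the sources used here, so counting errors could not be given.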
